A study of Mus musculus with 34 samples.

Results

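A pair of settings in which hair follicle stem cells (HFSCs) lacking Rxra meet dead cells were set side by side, the living follicle in late catagen (CatVII) and a dish to which apoptotic corpses were added. The libraries were taken by their labels and comprised 6 of the 34 ATAC-seq samples in the series, 3 of sorted CatVII Rxra cKO HFSCs (in vivo 1 to 3) and 3 of cultured Rxra cKO HFSCs exposed to corpses (culture 1 to 3). ATAC-seq uses a transposase that cuts and tags accessible DNA, and the measurement available here was the list of accessible peaks called in each library.

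Rxra was floxed and removed by a tamoxifen-activated Cre driven by Sox9 in both settings, and a YFP reporter at the Rosa26 locus marked recombined cells. The in vivo cells came from mice (Sox9-creER+ and Rxra fl/fl, with R26-YFP fl/+) that received tamoxifen at the end of anagen, and were sorted as YFP-positive, integrin alpha6-positive cells, with YFP in the place of CD34 in the gate, after removal of cells positive for Sca1 or for endothelial, melanocyte, dermal or immune surface markers. The cultured cells were primary HFSCs derived from female mice, Sox9-creER+ and Rxra fl/fl with R26-YFP fl/fl, treated with 4-hydroxytamoxifen in the dish, sorted for YFP, grown on growth-arrested mouse fibroblast feeders, and given corpses made by killing mTomato-labelled HFSCs with cisplatin. Cells of both settings were sorted before ATAC-seq. Setting, corpse exposure, cell line, passage, animal, sex and library batch all changed together between the groups, so their contributions cannot be told apart. The 3 cultures may share a line or a mouse, which the sources used here do not state, and in vivo 2 and in vivo 3 carry the same mouse tag in the peak names stored inside their lists although their labels differ, so the replicates may hold fewer animals than libraries. The tag stored in in vivo 3 also holds an age and the word Phago, neither of which is in its label. Whether Phago marks a sorted fraction was not resolved here.

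HFSCs reside in the bulge of the follicle, cycle between rest and growth, and survive the regression phase, catagen, in which most epithelial cells below them die. Cells that clear the dead use receptors such as MERTK, a receptor tyrosine kinase that recognises phosphatidylserine through bridging proteins, and RXRA, a nuclear receptor, pairs with retinoic acid receptors such as RARG to regulate target genes. Accessible sites away from promoters are largely enhancers, and the sequence motifs in them name the families of factors that can bind there: LHX2, a LIM homeodomain factor, is a known regulator of HFSC identity, whereas AP-1 (FOS and JUN proteins), TEAD and RUNX sites are common in the enhancers of growing and wound-activated keratinocytes.

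Sequences of 6 sites illustrate regions found in one setting alone, and each is 300 bases around a summit, read 5′ to 3′ on the plus strand of mm39 (GRCm39), in lower case with motif matches on either strand in capitals. The capitals mark AP-1 (TGANTCA), TEAD (GGAATG), RUNX (TGTGGTT) and LIM homeodomain (CTAATTA) letters, where N is any base. The first 2 sites had a listed peak in every in vivo library and in no culture library. They lie in an intron of Kank1 at chr19:25277233-25277532 and upstream of the retinoic acid receptor gene Rarb at chr14:5621958-5622257, which is intergenic.
Kank1: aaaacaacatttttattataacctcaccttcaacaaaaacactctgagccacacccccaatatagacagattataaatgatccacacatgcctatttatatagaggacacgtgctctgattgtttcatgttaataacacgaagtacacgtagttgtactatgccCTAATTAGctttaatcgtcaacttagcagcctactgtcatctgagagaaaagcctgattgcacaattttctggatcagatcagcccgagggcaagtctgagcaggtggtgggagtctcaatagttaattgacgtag
Rarb: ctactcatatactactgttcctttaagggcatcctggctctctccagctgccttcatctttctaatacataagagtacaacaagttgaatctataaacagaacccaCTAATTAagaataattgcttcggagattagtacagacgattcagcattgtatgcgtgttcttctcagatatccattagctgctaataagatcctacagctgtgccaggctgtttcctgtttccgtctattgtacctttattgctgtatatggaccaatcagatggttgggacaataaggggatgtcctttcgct
The other 4 had a listed peak in every culture library and in no in vivo library. They lie in introns of Pde4d (chr13:110034411-110034710), Dlg2 (chr7:90803300-90803599) and Ptpn14 (chr1:189570261-189570560), and between genes near the cytokine genes Il20 and Il24 (chr1:130830282-130830581).
Pde4d: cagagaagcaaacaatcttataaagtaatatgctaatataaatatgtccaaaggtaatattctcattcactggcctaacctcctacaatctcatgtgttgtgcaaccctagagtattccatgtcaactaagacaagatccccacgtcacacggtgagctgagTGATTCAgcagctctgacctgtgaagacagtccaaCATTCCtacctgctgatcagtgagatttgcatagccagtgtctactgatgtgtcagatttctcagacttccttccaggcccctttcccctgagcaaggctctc
Dlg2: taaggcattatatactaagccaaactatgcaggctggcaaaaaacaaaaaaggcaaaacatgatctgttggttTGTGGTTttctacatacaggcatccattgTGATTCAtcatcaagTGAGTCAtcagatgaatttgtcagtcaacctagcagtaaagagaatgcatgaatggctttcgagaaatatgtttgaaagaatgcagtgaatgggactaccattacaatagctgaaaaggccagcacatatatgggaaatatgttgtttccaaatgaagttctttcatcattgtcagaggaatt
Ptpn14: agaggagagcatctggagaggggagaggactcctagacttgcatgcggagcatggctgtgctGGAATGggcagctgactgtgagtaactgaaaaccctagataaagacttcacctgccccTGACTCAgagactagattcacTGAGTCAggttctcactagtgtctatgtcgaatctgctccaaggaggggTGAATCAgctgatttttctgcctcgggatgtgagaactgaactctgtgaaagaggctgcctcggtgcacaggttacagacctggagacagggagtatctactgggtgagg
Il24: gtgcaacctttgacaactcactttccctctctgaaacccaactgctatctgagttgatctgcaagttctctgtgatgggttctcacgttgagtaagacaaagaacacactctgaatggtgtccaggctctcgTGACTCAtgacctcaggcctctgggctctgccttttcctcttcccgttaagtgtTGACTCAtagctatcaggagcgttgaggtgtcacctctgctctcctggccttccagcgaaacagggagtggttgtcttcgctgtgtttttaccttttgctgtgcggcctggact
The Kank1 and Rarb sites each carried LIM homeodomain letters and no AP-1 match, and they are not typical in this, since 9.82% of the distal regions found only in vivo held LIM homeodomain letters. Each of the 4 culture sites carried at least 1 AP-1 match, with 3 in the Ptpn14 site. A match describes the letters and was not tested as a binding site.

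The authors called 41473, 55933 and 109886 peaks in vivo and 121591, 77784 and 129876 in culture, and depth estimated from the deposited scores ranged from 8170000 to 64190000 fragments in vivo and from 8436000 to 22260000 in culture. Because the lists differed in length, the 41317 peaks with the highest -log10 p on chromosomes 1 to 19, X and Y were taken from each library, which is every such peak of in vivo 1. In vivo 1 stood apart: chromosomes 1 to 3 held 32.8% of its listed peaks outside promoters, against 20.4% to 22.9% in the other 5 libraries. Chromosome 14 held 3.27%, 3.92% and 3.77% of the listed peaks in vivo against 2.34%, 2.38% and 2.64% in culture. Of 4 Y-linked promoters checked, 3, 2 and 3 had a called peak in vivo and 0 in each culture library, the cultured cells having come from females. Results are therefore also given without each library and without chromosomes 1, 2, 3 and 14.

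The lists of the 2 settings shared far less with each other than libraries within a setting did. The Jaccard index, the shared fraction of all regions found in either list, was 0.355, 0.458 and 0.558 among the in vivo libraries and 0.698, 0.702 and 0.662 among the cultures. Between the settings the pairs ranged from 0.249 to 0.317, below every pair within a setting. The mean index within groups exceeded that between groups by 0.286, with p = 0.1 in a one-sided exact permutation test over 20 relabelings, which is the smallest p that 3 against 3 allows. The in vivo libraries were also less alike than the cultures, and the lowest of their values involved in vivo 1.

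**Figure D1:**
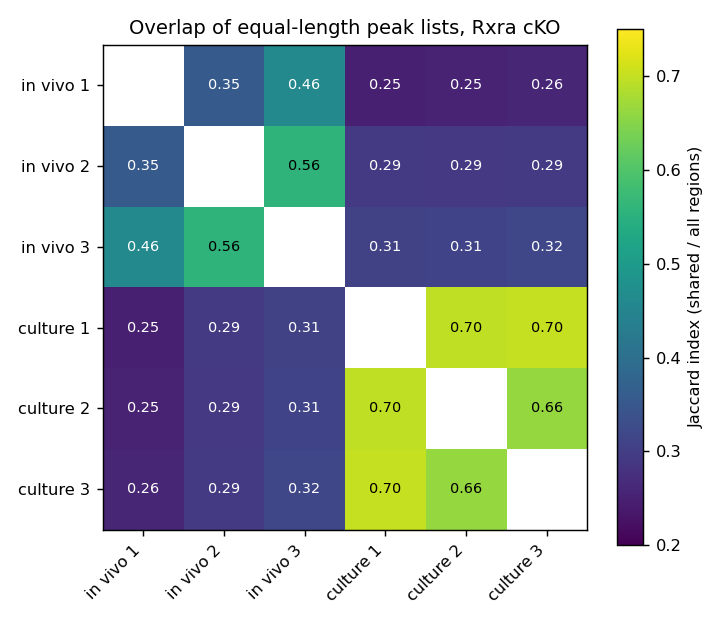
Jaccard index of each pair of Rxra cKO peak lists of equal length, with the 3 in vivo and 3 culture libraries on both axes and colour giving the index. Pairs within a setting lie at 0.355 or above and pairs across the settings at 0.317 or below.

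Peaks sharing at least 1 bp were merged, and 41467 regions had a listed peak in 3 or more libraries. A region was called found only in vivo when all 3 in vivo libraries and no culture library listed it, and the reverse for found only in culture. There were 5182 regions found only in vivo, 12.5% of the 41467, and 11650 found only in culture, 28.1%, while 12107 were listed in all 6 libraries. A region outside a list could still hold a weaker called peak, and 2407 of the in vivo and 8670 of the culture regions had no called peak of any rank in the other setting. Without in vivo 1, the library that stood apart, 10499 and 12386 regions were found only in vivo and only in culture, and without in vivo 2 they were 8632 and 12656, since presence in 2 libraries then suffices.

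Most regions found in one setting alone were distal. Promoters, within 1 kb of a protein-coding transcription start, made up 13.2% of the regions found only in vivo and 3.43% of those found only in culture, against 57.45% of the regions in all 6 libraries and 26.0% of the 41467. The median distance to a start was 24202 bp, 33427 bp and 169 bp in the 3 classes. Chromosome 14 held 5.54% of the regions found only in vivo and 2.22% of those found only in culture, and chromosome 1 held 6.31% and 9.87%. In whole lists, promoters took 28.5%, 25.8% and 29.5% of peaks in vivo and 23.2%, 24.4% and 24.9% in culture. The groups did not overlap, and the difference of -3.77 percentage points (culture minus in vivo) had p = 0.1 in a two-sided exact permutation test, the smallest possible. It was -10.5 with lists of 20658 peaks.

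Of 23 motifs searched in distal peaks, AP-1 had the widest gap between the settings in percentage points. In listed peaks outside promoters, AP-1 letters stood within 150 bp of the summit in 20.8%, 28.7% and 28.3% of peaks in vivo and in 53.45%, 53.6% and 53.0% in culture. Culture thus exceeded in vivo by 27.4 percentage points, more than the spread within either group (SD 4.475 in vivo and 0.285 in culture, n = 3 each), and by 24.8 without in vivo 1. TEAD, RUNX and NRF2 letters lay on the same side.

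TEAD letters, the site of the partners of YAP, stood in 20.2%, 20.7% and 21.6% of distal peaks in vivo and in 27.4%, 27.7% and 27.1% in culture. This gap of 6.525 percentage points was smaller than that of AP-1 but wider relative to the in vivo spread (SD 0.707, n = 3). RUNX letters were found in 6.798%, 9.10% and 8.09% in vivo and in 13.2%, 12.8% and 13.65% in culture. The NRF2 letters (TGACNNNGC), which overlap AP-1 letters, stood in 12.4% ± 1.49 in vivo and 18% ± 0.297 in culture (SD, n = 3). None of these 3 families overlapped between the groups. LIM homeodomain letters went the other way, with 4.31%, 7.365% and 6.28% in vivo and 2.88%, 2.74% and 2.60% in culture, and in vivo 1 lay nearest the cultures. GRHL (AACCNGTT, 4.86% against 3.999%), C/EBP (TTGCNNAA, 16.2% against 14.8%) and SP letters (GGGCGGG, 6.44% against 4.31%) were also more frequent in every in vivo library than in every culture library. Smaller gaps in the direction of culture were seen for STAT (TTCCNGGAA, 1.14% against 1.26%) and ETS letters (CCGGAAGT, 0.416% against 0.483%).

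In all, 10 of 23 motifs did not overlap between the groups, 6 higher in culture and 4 higher in vivo, each with p = 0.1 by two-sided exact permutation and a Benjamini-Hochberg adjusted p of 0.23 over the 23, since 3 against 3 cannot go lower. The other 13 overlapped, among them SOX (AACAATG, 6.43% in vivo and 6.50% in culture), TCF/LEF (CTTTGAT, 4.38% and 4.26%), the GATA family (letters AGATAAG), KLF (letters GGGTGTGG), FOX (letters TGTTTAC), NF-kappaB (GGGANTTCC), E-box (CAGCTG), and the p63, NFI and CTCF motifs. Direct repeats of the nuclear receptor half-site (AGGTCA, in which the first base may also be G and the third T) spaced by 1, 2 or 5 bases, to which RXR and RAR pairs can bind, were rare. Such a repeat spaced by 5 bases stood in 0.103% ± 0.0363 of distal peaks in vivo and 0.133% ± 0.0182 in culture (SD, n = 3), with overlapping groups. With a spacer of 2 bases the shares were 0.0793% ± 0.0308 in vivo and 0.116% ± 0.0278 in culture, again overlapping.

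**Figure D2:**
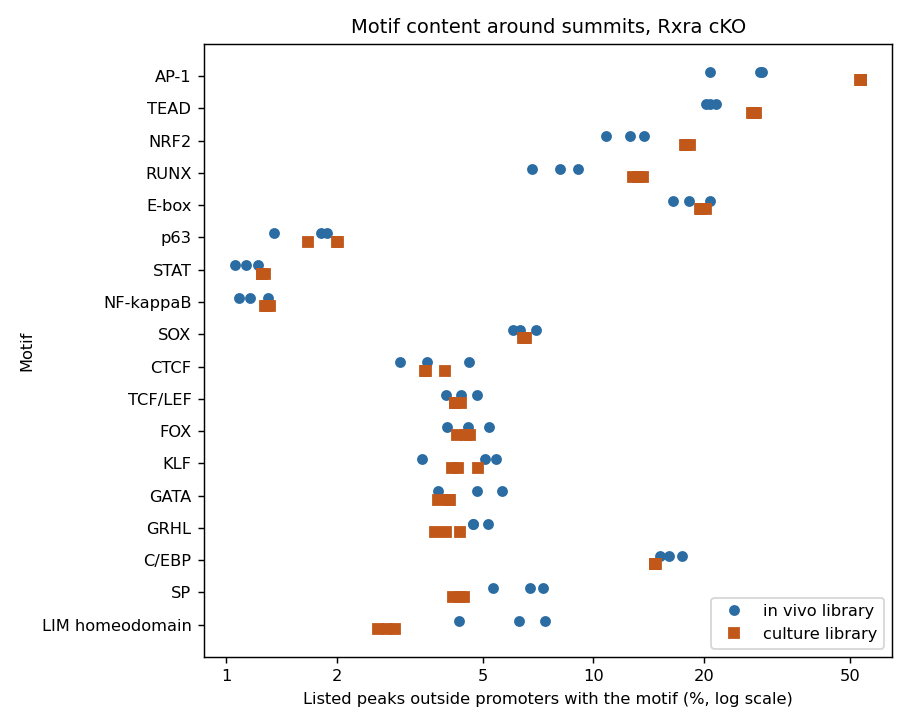
Share of listed peaks outside promoters with each motif within 150 bp of the summit, in percent on a log axis, 1 point per library with circles for in vivo and squares for culture, for motifs above 1% in either group. AP-1, TEAD, RUNX and NRF2 sit further right in all 3 cultures, and LIM homeodomain sits further right in all 3 in vivo libraries.

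The regions found in one setting alone showed wider gaps, given as a description because they were chosen by presence in these lists. Outside promoters, AP-1 letters stood in 810 of 4499 regions found only in vivo (18%) and in 7162 of 11250 found only in culture (63.7%), against 47.2% of all 30704 distal regions. LIM homeodomain letters stood in 442 in vivo regions (9.82%) and 284 culture regions (2.52%), against 3.895% of all distal regions. TEAD letters were present in 20.1% and 30.3% (25.8% of all) and RUNX letters in 7.51% and 15.9% (12.0% of all). Direct repeats with a spacer of 5 bases were in 1 in vivo region and 23 culture regions, 38 of all distal regions holding one. Those with a spacer of 2 bases were in 1 in vivo region and 13 culture regions, 25 of all distal regions holding one. Base composition moved with these shares, with a median GC of 49.0% in the distal in vivo regions and 45.7% in the culture regions, and its part in the result was not tested.

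Genes gathering the most regions found only in vivo were headed by Kank1, an adaptor of cell adhesions and the actin cytoskeleton, with 10 such regions nearest its starts. Map3k20, a stress-activated kinase, had 8. Gse1, Filip1l, Mtus1 and Aopep had 7 each, and Foxp1, a forkhead factor that holds HFSCs in quiescence, Barx2, a homeobox factor, Slc1a2, a glutamate transporter, and Pdzrn3 had 6 each. Slc1a2 and Gse1 had no region found only in culture, whereas Barx2 had 5 beside its 6. The best-ranked Slc1a2 site, intronic at chr2:102524607-102524913, had a fold enrichment over local background of 10.8, 15.4 and 25.05 in vivo and a called peak in 1 culture library (3.88). The best Mtus1 site (chr8:41528749-41529363, intronic) had 13.4, 12.0 and 15.9 in vivo and no called peak in culture, and the best Map3k20 site (chr2:72213729-72214634, intronic) had 14.9, 9.26 and 19.95 with none in culture. The median fold enrichment of listed peaks ranged from 5.96 in in vivo 1 to 13.9 in culture 3, so these ratios rank peaks inside a list and were not compared between libraries without normalization.

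In culture the gene with the most regions was Pde4d, a cyclic AMP phosphodiesterase, with 14, followed by Bcar3, an adaptor of adhesion signalling, with 10. Grip1, Nek7, a kinase required for the NLRP3 inflammasome, Mtap, Dlg2, a membrane scaffold, and the homeobox gene Cux1 had 9 each. Cubn, an endocytic receptor, Sgms1, a sphingomyelin synthase, and Rap2b, a small GTPase, had 8 each. Grip1, Dlg2 and Cubn had no region listed in all 6 libraries and none found only in vivo. The Pde4d site printed above had fold enrichments of 20.7, 17.1 and 23.6 in culture and a called peak in in vivo 3 alone (3.61). The best Cubn site (chr2:13455702-13456052, intronic) had 21.3, 17.6 and 25.7 in culture and no called peak in vivo. AP-1 letters stood in the best-ranked site of 8 of these 10 genes and of 2 of the 10 in vivo genes, Aopep and Slc1a2, and the exceptions in culture were Nek7 and Cux1. Over all regions of each class, promoters included, the share was 63.3% in culture and 16.7% in vivo, so the counts describe the classes and not these genes.

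Of 683 promoter regions found only in vivo, the best ranked were at Ipo5, Prxl2b, Tex14, Armh4, Acacb, Ctnnal1, Derl3, Sfxn4, Mfsd9 and Frmd5. These were mostly differences of rank, since 9 of the 10 still had a called peak in at least 2 cultures. The exception was Derl3, a component of endoplasmic reticulum associated degradation, with fold enrichments of 13.7, 13.1 and 19.8 in vivo and no called peak in culture. Ipo5, an importin, had 14.6, 12.6 and 24.9 in vivo and 9.59, 7.07 and 9.59 in culture. Only 45.65% of the 25-base words in the Tex14 region occur once in the genome, so its reads may be shared with copies.

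Of 400 promoter regions found only in culture, the best ranked included those at Uck2, Nat3, Il18, Nadk, Rnf11, Cdc42ep4, Adam12, Plaur and Scamp4. Several had no called peak in any in vivo library. The promoter of Nat3, an arylamine acetyltransferase, had 27.3, 21.9 and 28.9 in culture and none in vivo, and the region beside Plaur, the urokinase receptor of migrating keratinocytes, had 16.1, 16.4 and 14.98 and none in vivo. Il18, an inflammatory cytokine made by keratinocytes, had 24.7, 19.03 and 28.8 in culture and 7.215 in in vivo 3 alone. Nadk, Rnf11 and Scamp4 likewise had no called peak in vivo.

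Genes were next read by function, in 18 lists, counting regions from 50 kb upstream to 5 kb downstream of each gene. Across all 21722 protein-coding genes, 21.6% had a region found only in vivo in this window and 35.7% one found only in culture, and 30.8% of all regions found in one setting alone were in vivo ones. Of the 274 genes, 273 were matched, Hprt being the exception. As a share of all listed peaks, 6 of the 18 lists did not overlap between the groups, 5 higher in vivo and 1 higher in culture, with p = 0.1 by exact permutation and a Benjamini-Hochberg adjusted p of 0.3, which 3 against 3 libraries cannot lower. Windows of neighbouring genes overlap, so a region can count for several genes.

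The Rxra gene itself gave no check of the deletion, since peaks show accessibility and not the loss of an exon. Its promoter was listed in all 6 libraries, at fold enrichments of 10.1, 11.4 and 15.45 in vivo and 13.9, 13 and 17.6 in culture. An intronic Rxra region at chr2:27605269-27605661, with AP-1 letters, was found only in culture (11.4, 6.45 and 10.9, with no called peak in vivo). Another at chr2:27614711-27614982, 362 bp from a start, was found only in vivo (6.695, 5.61 and 7.01, with no called peak in culture).

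HFSC identity genes leaned to the in vivo lists. Of 18, 15 had a region found only in vivo and 9 one found only in culture. These were 83.3% and 50% of the list, against 21.6% and 35.7% of all genes. In their windows 36 regions were found only in vivo and 15 only in culture (70.6% in vivo), against 30.8% over all regions. Their share of listed peaks was 0.396% ± 0.0283 in vivo and 0.233% ± 0.00609 in culture (SD, n = 3), without overlap. Foxp1 and Nfib, a nuclear factor I protein of the bulge, had 6 in vivo regions each, Tcf7l2 had 5 and Lhx2 had 3.

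The Lhx2 promoter was listed in all 3 in vivo libraries (7.20, 12.75 and 17.9) and in no culture, where it was called lower in the ranking (9.305, 7.31 and 6.87). The numbers overlap between the groups and the ranks do not. The other Lhx2 regions found only in vivo were also called below the lists in culture 1 and 3. Nfib had an intronic site at chr4:82302524-82303277 with 5.43, 13.3 and 16.0 in vivo and no called peak in culture. The best-ranked in vivo Nfib site, chr4:82461363-82461664, gave 10.3, 10.3 and 11.8, with calls of 9.63 and 10.6 below the lists of culture 1 and 3. Nfib also had a pair of regions found only in culture, of which chr4:82434763-82435023 held AP-1 and TEAD letters and gave 12.7, 10.97 and 8.92. The marker Cd34 was listed at its promoter in in vivo 1 and 3 (7.19 and 14.04), was called below the list in in vivo 2 (4.60), and had no called peak in culture. Sox9 was listed at its promoter in all 6 libraries, and Krt15 in 3 in vivo libraries and culture 1 alone. Lgr5, a stem cell receptor, was listed at its promoter in in vivo 3 alone (9.85). It was called below the lists in every culture (7.205, 6.59 and 6.87) and in in vivo 2 (5.355). The promoters of Lhx2, Cd34 and Lgr5 were thus outside every culture list. Those of Tcf7l1, Col17a1 and Nfatc1 were not, being listed in 3, 2 and 2 in vivo libraries and in 2, 2 and 1 cultures.

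Pan-keratinocyte genes were open in both settings. Of 14, 10 had a region found only in vivo and 9 one found only in culture, with 15 and 17 regions. The genes were 71.4% and 64.3% of the list, against 21.6% and 35.7% of all genes. In all in vivo libraries 12 promoters were listed, and in all cultures 13. The promoter of Krt5, the basal keratin, was the one outside the culture lists. Its region 43 bp from a start had 7.01, 7.54 and 9.90 in vivo and calls of 4.16, 3.05 and 3.565 below the culture lists. Trp63, the master factor of stratified epithelia, was listed at its promoter in all 6 libraries, and a site in its intron (chr16:25544318-25544666, AP-1 letters) was found only in culture at 17.2, 14.5 and 13.4. Cdh1 and Itgb4 had 2 regions of each class.

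Genes for stress and wound factors, the AP-1 genes and members of other families such as Stat3, Cebpb and Klf4, leaned to the in vivo lists. Of 20, 12 had a region found only in vivo and 6 one found only in culture. These were 60% and 30% of the list, against 21.6% and 35.7% of all genes. They had 19 and 16 such regions, 54.3% in vivo against 30.8% over all regions. Their share of listed peaks was higher in vivo (0.301% ± 0.0165 against 0.266% ± 0.0151, SD, n = 3, no overlap). Fos, Jun and Fosl1 were listed at their promoters in all 6 libraries, and Junb in the 3 in vivo libraries alone. Stat3 had 4 regions found only in vivo and none found only in culture. Runx2, a RUNX factor, stood against the list with 9 regions found only in culture and 1 found only in vivo, each of the 9 holding AP-1 or TEAD letters. The Runx2 promoter went the other way, listed in 2 in vivo libraries and in no culture.

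The strongest of the Runx2 sites, intronic at chr17:44891367-44891681, had fold enrichments of 20.45, 15.7 and 20.6 in culture and no called peak in vivo. The site at chr17:44965331-44965728 gave 19.3, 14.3 and 20.35, again with none in vivo. The in vivo region at chr17:44895666-44896004 gave 7.599, 6.305 and 7.16, with a weak call in culture 2 (4.04).

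Genes of the wound edge and of cultured keratinocytes had more culture than in vivo regions, as genes overall did. Of 20, 15 had a region found only in culture and 10 one found only in vivo (75% and 50%, against 35.7% and 21.6% of all genes). They had 28 and 18 such regions, 39.1% in vivo against 30.8% over all regions, and the shares of listed peaks overlapped (0.223% in vivo and 0.236% in culture). Il24, a cytokine of the IL-10 family induced in wounds, had 5 regions found only in culture, all with AP-1 letters, and its promoter was listed in 3 cultures and no in vivo library. The Il24 site printed above had 25.8, 18.02 and 26.9 in culture and 3.87 in in vivo 3 alone. Il1a, an alarm cytokine, and Mmp13, a collagenase, had 3 each, and the Mmp13 site at chr9:7258477-7258875 gave 24.7, 20.3 and 21.1 with no called peak in vivo. Cd44, the hyaluronan receptor, ran the other way, with 6 regions found only in vivo and 1 only in culture.

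Targets and partners of YAP were close to the proportion over all regions. Of 12 YAP/TEAD genes, 10 had a region found only in culture and 6 one found only in vivo (83.3% and 50%). They had 20 and 8 such regions, 28.6% in vivo against 30.8% over all regions, and the shares of listed peaks overlapped (0.1815% in culture and 0.169% in vivo, p = 0.3 by exact permutation). Ptpn14, a phosphatase that binds YAP, had 7 culture regions and 1 in vivo region. Its site printed above had 20.8, 22.5 and 21.95 in culture and no called peak in vivo. The matrix protein genes Ccn1, with 3, and Ccn2, with 1, are established YAP targets, and Amotl2 had 2. Tead4 had 2 regions found only in vivo and none found only in culture.

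**Figure D3:**
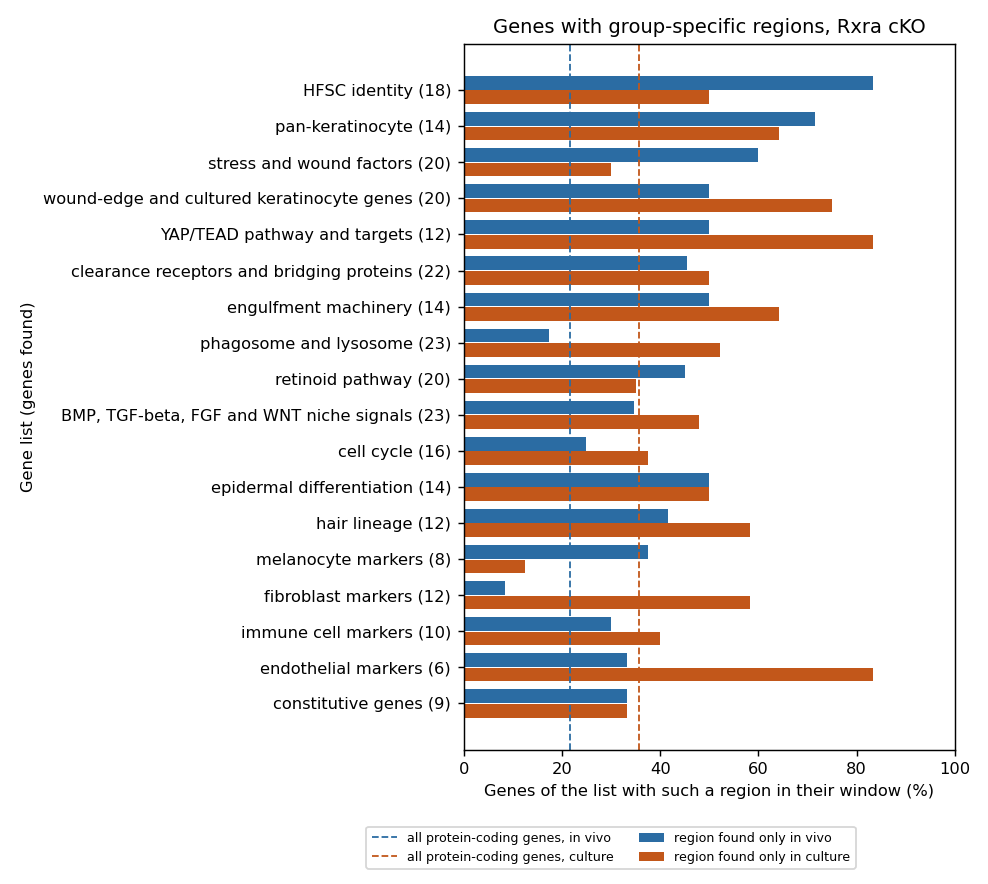
Percentage of the genes in each list with a region found only in vivo (blue) or only in culture (orange) in their window, with dashed lines at 21.6% and 35.7% for all protein-coding genes. HFSC identity has the longest in vivo bar (83.3%), and YAP/TEAD and endothelial markers the longest culture bars (83.3%).

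Receptors and bridging proteins of dead-cell clearance were found on both sides. Of 22 genes, 10 had a region found only in vivo and 11 one found only in culture, with 14 and 19 regions. The genes were 45.5% and 50% of the list, against 21.6% and 35.7% of all genes. The shares of listed peaks overlapped (0.219% and 0.201%). Mertk, the receptor tyrosine kinase that binds corpses through bridging proteins, was listed at its promoter in all 6 libraries (7.64, 10.2 and 16.9 in vivo and 16.6, 9.69 and 17.2 in culture). An intronic Mertk site at chr2:128600729-128601199, with NRF2 letters, was found only in culture (15.8, 12.9 and 18.5). Axl and Tyro3, the related receptors, were listed at their promoters in 2 and 1 in vivo libraries and in no culture. Both were called below the culture lists, so these were differences of rank. Axl gave 3.58, 5.61 and 6.56 in culture, and 3.97 and 7.99 in in vivo 1 and 3, with no call in in vivo 2. Tyro3 gave 7.24 and 6.675 in culture 1 and 3, with no call in culture 2, and 4.69, 4.24 and 5.865 in vivo.

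The bridging protein genes differed from each other. Gas6, the ligand of all 3 of these receptors, had 3 regions found only in vivo and none found only in culture, and its promoter gave 4.96, 6.65 and 10.5 in vivo and calls below the lists of 6.53, 4.42 and 7.85 in culture. Upstream of Gas6, the intergenic site chr8:13565817-13566388 gave 5.78, 6.05 and 10.3 in vivo and no called peak in culture. Mfge8, which links phosphatidylserine to integrins, was listed at its promoter in all 6 libraries and had 1 region of each class in its window. The site chr7:78799134-78799553, 614 bp from a start and so itself at the promoter, was found only in vivo at 5.651, 10.1 and 13.4. In culture it had a call of 3.96 in culture 1 alone. The promoter peaks listed in culture (9.585, 8.31 and 10.75) thus belonged to another region. The intergenic site 11337 bp away (chr7:78810055-78810261, AP-1 letters) was found only in culture at 18.85, 18.46 and 22.7. Among the integrin genes, Itgav had 3 culture regions and 0 in vivo ones and Itgb5 had 3 and 1, and Edil3, another integrin ligand of dead cells, had 3 and 0.

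Engulfment machinery and phagosome genes had more culture regions, as genes overall did. Of 14 engulfment genes, 9 had a region found only in culture and 7 one found only in vivo, with 21 and 7 regions. Those genes were 64.3% and 50% of the list, against 35.7% and 21.6% of all genes. Trio, an exchange factor for RAC1, had 5 culture regions and 1 in vivo region, Dock1, which activates RAC1 with ELMO proteins, had 4 and 0, and Cdc42 had 4 and 0. The promoters of Elmo1, Dock1, Rhog and Gulp1, an engulfment adaptor, were listed in 2, 2, 3 and 3 in vivo libraries and in no culture. Of 23 phagosome and lysosome genes, 12 had a region found only in culture and 4 one found only in vivo, with 20 and 10 regions. Here the genes were 52.2% and 17.4% of the list, against 35.7% and 21.6% of all genes. Uvrag held 5 of the 10 in vivo regions, the best of which is mostly repeated sequence (11.6% of its 25-base words are unique), and the cathepsin genes Ctsb and Ctsd held 2 each. The Ctsd site at chr7:141963414-141963665, with AP-1 and RUNX letters, gave 20, 15.35 and 22.6 in culture and no called peak in vivo.

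Retinoid pathway genes were divided between the settings. Of 20, 9 had a region found only in vivo and 7 one found only in culture, with 12 and 10 regions. The genes were 45% and 35% of the list, against 21.6% and 35.7% of all genes. Shares of listed peaks were 0.2025% ± 0.0316 in vivo and 0.1735% ± 0.00609 in culture (SD, n = 3). Rarg was listed at its promoter in all 6 libraries (8.40, 8.49 and 11.2 in vivo and 9.27, 7.82 and 13.3 in culture) and had 2 regions found only in vivo. One of them, in an intron of the neighbouring Espl1 (chr15:102212791-102213541), gave 9.20, 13.1 and 17.6 in vivo and no called peak in culture. Aldh1a1, which makes retinoic acid, and Stra6, a retinol transporter, also had 2 in vivo regions each, Stra6 with 2 in culture beside them. Rarb had 3 culture regions and the in vivo site printed above, which gave 3.755, 9.31 and 15.2 in vivo and no called peak in culture.

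Niche signalling genes (BMP, TGF-beta, FGF and WNT) took a higher share of listed peaks in vivo, 0.464% ± 0.0209 against 0.3985% ± 0.0140 (SD, n = 3), without overlap. Most of their regions lay in the long annotated span of Fgfr2, which overlaps Tacc2 and held 13 in vivo and 20 culture regions. Beyond it, Id1, Smad6 and Smad7, feedback targets of BMP and TGF-beta, had 2 in vivo regions each, Smad6 with 1 in culture. Bmpr1b, a BMP receptor, ran the other way with 3 culture regions and 1 in vivo region, and its promoter was listed in 3 cultures (19.7, 15.2 and 18.15) and no in vivo library. Dkk3, a protein of the Dickkopf family, had 2 culture regions and 1 in vivo region. Cell cycle genes had 4 in vivo and 13 culture regions, of which the neighbouring inhibitors Cdkn2a and Cdkn2b shared 4 in culture, one of them at 21.5, 16.2 and 26.8 with no called peak in vivo. The Cdkn2a promoter was listed in 3 cultures and no in vivo library, and those of Myc and Cdkn1c in 3 in vivo libraries and no culture.

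Epidermal differentiation genes had 8 in vivo and 12 culture regions. Sprr1b, a cornified envelope precursor, held 4 of the latter, the best at 21.3, 19.6 and 23.1 with no called peak in vivo. Hair lineage genes had 8 in vivo and 7 culture regions and a higher share of listed peaks in vivo (0.0968% ± 0.0111 against 0.0710% ± 0.00559, SD, n = 3, no overlap). Dlx3, a homeobox factor of the hair shaft, had 3 in vivo regions. The 9 constitutive genes had 4 in vivo and 3 culture regions.

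Markers of other cells of the skin and of the feeder fibroblasts were counted, although cells of both settings had been sorted. Of 12 fibroblast markers, 7 had a region found only in culture and 1 one found only in vivo (12 and 2 regions). The genes were 58.3% and 8.33% of the list, against 35.7% and 21.6% of all genes. Their share of listed peaks was 0.0169% to 0.0266% in vivo and 0.0460% to 0.0508% in culture. Fbn1, a microfibril component, held 5 of the culture regions, with chr2:125383338-125383953 at 15.1, 13.05 and 14.03 and no called peak in vivo, and Vim held 2. Col3a1, Pdgfra, Pdgfrb, Prrx1 and Twist2 held 1 culture region each, and Col1a1 held the 2 in vivo regions. Col1a2, Twist1, Lum and Dcn had no region in 3 or more libraries. Without chromosomes 1, 2, 3 and 14 the fibroblast difference was -0.00237 percentage points (culture minus in vivo). That alternative removes marker genes themselves, among them Fbn1 and Vim on chromosome 2 and Col3a1 on chromosome 1. Col1a1, with the in vivo regions, lies on chromosome 11 and stays. It therefore cannot tell an effect of those chromosomes from one of the markers they carry.

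Of 8 melanocyte markers, 3 had a region found only in vivo and 1 one found only in culture. The genes were 37.5% and 12.5% of the list, against 21.6% and 35.7% of all genes. Shares of listed peaks were 0.0387% to 0.0436% in vivo and 0.0242% to 0.0290% in culture. Dct, an enzyme of melanin synthesis, had 2 promoter-side regions found only in vivo, of which chr14:118289397-118290031 gave 5.63, 11.2 and 11.45 with no called peak in culture. Tyr, Tyrp1, Kit and Ednrb had no region in 3 or more libraries. Of 10 immune markers, 3 and 4 had in vivo and culture regions (30% and 40%, against 21.6% and 35.7% of all genes). The promoter of Csf1r, a macrophage growth factor receptor, was listed in 3 cultures (18.3, 11.99 and 23.3) and in no in vivo library, where it was called in in vivo 2 alone (5.38). Spi1, a myeloid transcription factor, had 4 regions in all 6 libraries and 1 found only in culture, and Cd207 and Lyz2 had no region in 3 or more libraries. Of 6 endothelial markers, 2 had a region found only in vivo and 5 one found only in culture (33.3% and 83.3%). Shares of listed peaks overlapped for both, at 0.0508% to 0.0557% in vivo and 0.0484% to 0.0605% in culture for immune markers and at 0.0363% to 0.0460% and 0.04115% to 0.0484% for endothelial markers. The part of other cell types in the results was not tested.

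Sites open in both settings were compared by the height of their peaks. For the 12107 regions listed in all 6 libraries, the log2 fold enrichment at the summit was quantile normalized and fitted with limma. At a Benjamini-Hochberg adjusted p under 0.05, 685 regions (5.66%) were higher in vivo and 1024 (8.46%) were higher in culture, with median fold differences of 1.60 and 1.68. With median centring in place of quantile normalization, 438 and 847 were called, of which 428 and 817 were also called in the fit described. Quantile normalization returned 2.08% to 32.7% false calls in simulated data (12107 regions, 200 of them changed), depending on the spread and size of the changes, and median centring 3.05% to 6.84%, so the calls of both fits are given. Leaving out culture 1, 2 or 3 left 171, 397 and 253 calls in vivo and 433, 672 and 525 in culture, and leaving out in vivo 2 gave 1096 and 1483.

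The called sites differed in kind. Promoters made up 78.8% of the regions higher in vivo, 16.6% of those higher in culture and 57.45% of all tested. Outside promoters, AP-1 letters stood in 27.6% of the 145 in vivo regions and in 63.1% of the 854 culture regions, against 45.6% of the 5152 tested. These libraries are the ones behind the shares in whole lists, so neither is independent of the other.

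The 5 regions with the smallest adjusted p in culture had Nrp2, Tor3a, Gbe1, Tmem238l and Mroh2a as their nearest protein-coding genes. Those of Nrp2 and Gbe1 were far, at 140103 and 210632 bp from a start, beyond the 100 kb used for the gene counts above. The regions near Nrp2, Tor3a and Mroh2a lie on chromosome 1, which held 6.79% of the regions tested. The region near Nrp2, a semaphorin and VEGF co-receptor, at chr1:62882346-62882681 had fold enrichments of 7.93, 7.08 and 15.15 in vivo and 31.1, 23.99 and 34 in culture, a log2 difference of 1.48 (SE 0.161, limma adjusted p = 4.3e-06). The groups did not overlap. The intronic Tor3a region gave 6.68, 6.295 and 18 in vivo and 27.2, 25.65 and 35.4 in culture, a log2 difference of 1.504 (SE 0.184, limma adjusted p = 2.7e-05). The remaining 3 had log2 differences of 1.40 to 1.455, and 4 of the 5 held AP-1 letters, that near Gbe1 being the exception.

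In vivo the 5 were near Adgre5, Tars2, Ndrg1, Tpst2 and Tspan31, and the last 4 were at promoters. Ndrg1, a stress-responsive gene of differentiating epithelia, gave 10.8, 17.0 and 18.5 at its promoter in vivo and 7.23, 6.65 and 6.775 in culture, a log2 difference of -1.41 (culture minus in vivo, SE 0.219, limma adjusted p = 0.0002). Tars2, a mitochondrial threonyl-tRNA synthetase, gave 12.4, 17.1 and 28.7 in vivo and 9.325, 8.41 and 9.28 in culture, a log2 difference of -1.32 (SE 0.205, limma adjusted p = 0.0002). The region near Adgre5 has only 24.3% unique 25-base words, so its height may include reads from copies. None of the 5 held AP-1 letters, which stood in 22.85% of all regions tested, promoters included, and in 45.6% of those outside promoters.

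By list, few shared regions were called. Of the 36 tested in HFSC identity windows, 1 was higher in vivo and 3 in culture. The in vivo lean of this list thus lay in which sites were listed, not in the height of sites listed in all 6 libraries. Some sites found only in vivo, such as the Lhx2 promoter, were still called below the culture lists. Stress and wound factors had 6 of 52 higher in vivo and 1 in culture, YAP/TEAD genes 1 and 6 of 28, and phagosome and lysosome genes 1 and 7 of 46. Clearance receptors and bridging proteins had 1 and 2 of 32. The median log2 difference lay at 0.11, -0.13, 0.15, 0.05 and 0.02 in these 5 lists and at -0.03 over all regions tested.

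**Figure D4:**
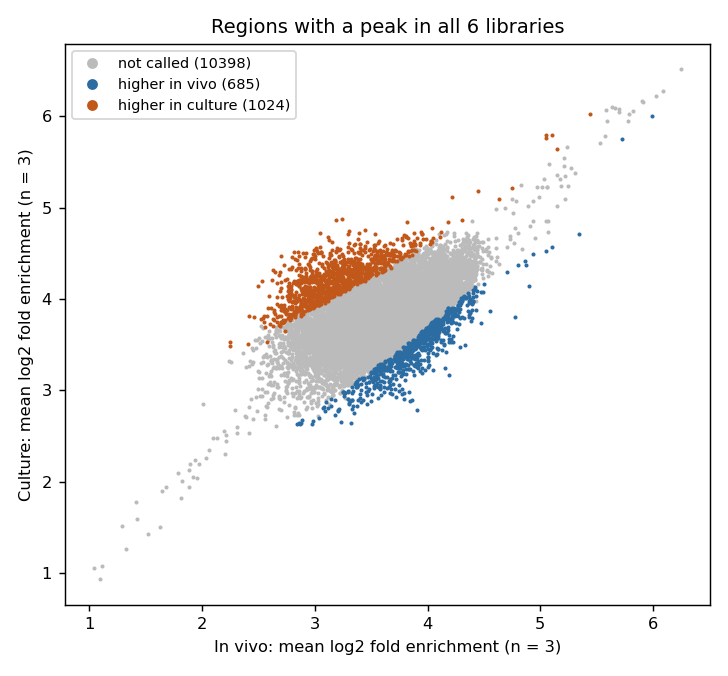
Mean log2 fold enrichment of the 12107 regions listed in all 6 libraries, in vivo on the x axis and culture on the y axis (n = 3 each), with limma calls coloured. The 1024 regions higher in culture lie above the cloud and the 685 higher in vivo below it.

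Libraries that took no part in choosing the regions showed how widely they were shared. The CatVII Rxra WT libraries, with Rxra intact, listed 75.1% to 83.4% of the regions found only in vivo and 3.97% to 12.6% of those found only in culture (n = 4). Rxra WT HFSCs cultured with corpses listed 7.89% to 10.75% and 73.7% to 80.4% (n = 4). The order of the settings was thus the same with Rxra present, and 2478 of the in vivo regions (47.8%) were listed in all 4 WT in vivo libraries and no WT corpse culture, while 5883 of the culture regions (50.5%) showed the reverse. The opposite patterns were shown by 1 and 2 regions. Across all 41467 regions the same patterns held for 7.02% and 17.0%. The full list of late anagen (AnaVI) wild type 2 held 82% of the regions found only in vivo and 3.51% of those found only in culture. That of CatVII wild type 2 held 78.2% and 9.69%. A shorter AnaVI list, of 14181 peaks, held 32.3% of the in vivo regions. Listing of the in vivo regions was thus not limited to catagen.

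The regions found only in culture were also listed in cultures that received no corpses. Both libraries of Rxra cKO HFSCs given recombinant arachidonic acid, lysophosphatidylcholine and retinoic acid listed 86.6% and 87.5% of the regions found only in culture and 11.9% of those found only in vivo in both. Rxra cKO cultures in medium alone had only 4111 and 5267 listed peaks, too few for this reading.

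**Figure D5:**
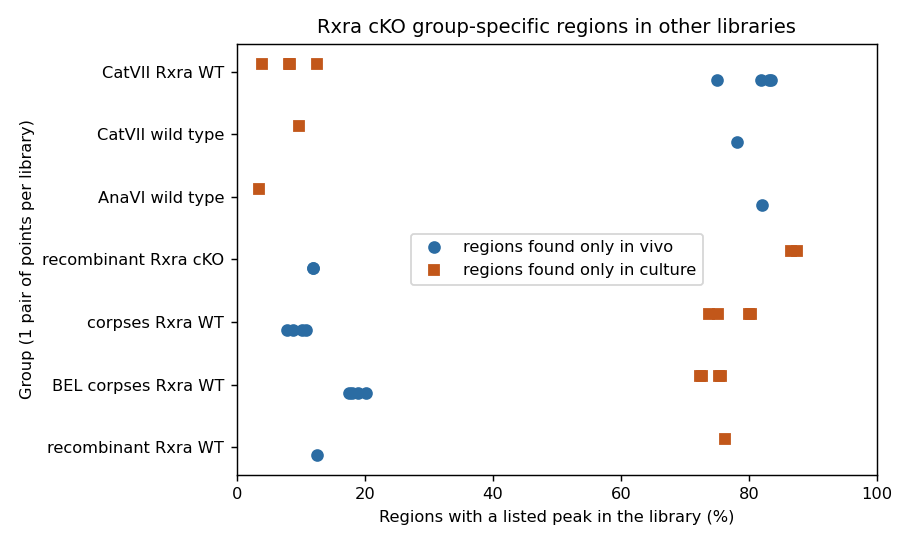
Share of the regions found only in vivo (circles) and only in culture (squares) that had a listed peak in each other library with a full list of 41317 peaks, by group. CatVII Rxra WT libraries lie at 75.1% to 83.4% for the in vivo regions, and Rxra WT corpse cultures at 73.7% to 80.4% for the culture regions.

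The gap in AP-1 content was set against that of Rxra WT libraries in an analysis chosen after the data were seen. AP-1 letters stood in 30.7% ± 3.94 of distal peaks in WT CatVII and 52.6% ± 0.583 in WT corpse cultures (SD, n = 4), a gap of 21.9 percentage points against 27.4 in Rxra cKO. The difference between the gaps, 5.50 points, had p = 0.128 in an exact permutation of genotype within each setting (1225 relabelings). For TEAD the gap was 6.525 points in Rxra cKO and 3.43 in WT (p = 0.0098 by exact permutation), and for LIM homeodomain -3.25 and -1.46 (p = 0.0694 by exact permutation). GATA and STAT had the smallest p, 0.0049 by exact permutation. Over all motifs and the promoter share, no difference passed after Benjamini-Hochberg adjustment, the smallest adjusted p being 0.0588 by exact permutation, so no gap in motif content was shown to differ with Rxra.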

How the data were processed

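ATAC-seq peak lists of 3 CatVII Rxra cKO and 3 corpse-exposed Rxra cKO libraries were analysed, grouped by their labels. The authors mapped fragments with BWA 0.7.18 on the mm39 assembly, discarded duplicates (SAMtools 1.17) and ran MACS3 3.0.0 on every library separately, and the submitters' processing notes also list SAMtools 1.9 and deepTools 2.0.0. The deposited lists give the fold enrichment at the summit (a ratio to local background), the -log10 p and -log10 q, a score, and the offset of the summit from the start of the peak in bp. They hold no read counts, so the count model of the study was not fitted. As many peaks as the shortest list holds (41317) were taken per library by -log10 p, and regions, promoters (1 kb), motifs (300 bp) and gene windows were computed in Python 3.11.15 with pysam 0.24.0, scipy 1.17.1 and GENCODE M39. Shares were compared by exact permutation tests, and heights with limma 3.58.1 in R 4.3.3, tested on simulated data. Depth was estimated from the deposited scores.

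The members, gene lists, motifs and tests were chosen with earlier results of these data known. Named were Rxra, the 10 genes with the most regions per class, the 10 best-ranked promoters per class, the 5 regions with the smallest limma p per direction, up to 4 members of each list with the most regions found in one setting alone, and the promoters of Mertk, Axl, Tyro3, Gas6, Mfge8 and Rarg. Other members of the lists, among them Krt5, Cd34, Lgr5, Junb, Tead4 and Dct, were chosen after their values were seen. Replicates are separate samples by their labels, and p-values measure only the spread between them, which may be technical. Alternatives changed the list length, ranking, overlap, presence rule, promoter and window size, normalization and the libraries used. A promoter found only in culture and the sequence of a site found only in vivo, which held RUNX and no LIM homeodomain letters, are not reported here.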

Additional observations from a re-analysis of the deposited data

How the results depend on the processing

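The counts depended on how many peaks were compared. With all called peaks, 28718 regions were found only in culture and 10 gene lists did not overlap between the groups. With lists of 20658 peaks, 2661 regions were found only in vivo, 5428 only in culture and 5992 in all 6 libraries, 12 gene lists did not overlap, and the ETS difference turned to -0.0298 percentage points (culture minus in vivo). With ranking by fold enrichment 10 lists did not overlap. Requiring no called peak at all in the other setting left 2407 regions found only in vivo, and accepting 2 of 3 libraries gave 14532. Without chromosomes 1, 2, 3 and 14, an alternative chosen after the data were seen, 7656 regions were found only in culture and the fibroblast difference was -0.00237 percentage points. The same alternative drops the fibroblast markers Fbn1, Vim and Col3a1. In limma, median centring called 438 regions higher in vivo and library weights 1116.

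Leaving out single libraries gave 5502 to 10499 regions found only in vivo (10499 without in vivo 1 and 8632 without in vivo 2, where 2 libraries then suffice), 171 to 1096 limma regions higher in vivo and 433 to 1483 higher in culture. The lowest limma counts came without culture 1 and the highest without in vivo 2. Library numbers did not pair the samples (correlations of same-numbered deviations -0.131, 0.0631 and 0.148), and a replicate block gave 716 and 1091 calls. The Jaccard difference (0.221 to 0.353), the promoter difference (-10.5 to -2.97 percentage points) and the AP-1 difference (21.7 to 28.8) kept their direction under every alternative run. Of the single measures, 576 values held, 68 moved and 2 reversed, those named above. The cause of these changes was not tested beyond the number of peaks or libraries each alternative removes. With 3 libraries a group no single measure can pass the threshold by permutation, and depth from 8170000 fragments limits what a missing peak shows.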
